A study of Tachysurus ussuriensis with 12 samples.

Results

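In the Ussuri catfish (Tachysurus ussuriensis), 118 assembled transcripts were higher at 24 h than at 0 h of acute salinity stress in both gill and kidney. They were chosen from 84875 transcripts by their FPKM (fragments counted relative to transcript length and library size). A transcript was taken where its mean FPKM over the 12 libraries was 2 or more, its lowest 24 h value lay above its highest 0 h value in gill and again in kidney, and its mean log2(FPKM + 1) rose by 1 or more in each tissue. The rises over time are therefore what chose these transcripts. They are given as a description, with no test. Only the difference between the tissues, which was not itself a condition of the choice, is tested.

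The groups were gill at 0 h, gill at 24 h, kidney at 0 h and kidney at 24 h, with 3 libraries each. The labels name tissue, time and replicate number, but no salinity, age or strain, and do not tell whether the 3 libraries in each group are separate fish. The p-values therefore cover only the variation among these libraries, some of which may be technical. They name no group kept for 24 h without salinity stress, so salinity and the passing of 24 h cannot be told apart. The series asks how gill and kidney respond to acute salinity stress.

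Freshwater fish live in a medium more dilute than their blood. They take up ions through ionocytes, the transporting cells of the gill epithelium, and the kidney reclaims filtered ions and voids a dilute urine. When the water becomes saltier, teleosts cut ion uptake and urine flow, and both organs switch on stress and cell volume genes. A rise seen in both organs can belong to any cell type they share, such as epithelium, blood or vessel wall. In bulk RNA, more cells of a type and more RNA per cell cannot be told apart.

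The transcripts carry IDs of the form written by Trinity, a program that builds transcripts from reads without a genome. The file does not pair these IDs with gene names, so no function can be given to the 118, and the tissue labels could not be checked against marker genes. For the same reason only 2 of the 118 are named: the one with the largest value of the smaller of its changes in gill and kidney, and the one with the highest mean FPKM. Others are described by their place in the set and were picked after their values were seen.

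Total FPKM per library ran from 631998 to 714003, and relative depth, estimated from low FPKM steps in 11963 transcripts, from 0.862 to 1.12. Replicate libraries correlated at r = 0.897 to 0.913, except for pairs with kidney 0 h replicate 2 (0.826 and 0.828). That library stood apart: its median FPKM was 1.26, and the other 11 lay between 1.85 and 2.22. It was the lowest kidney 0 h library for 89 of the 118 transcripts (75.4%) and for 59.3% of all 42379 transcripts with a mean FPKM of 2 or more. The main kidney summaries are therefore given with and without it; values of single kidney libraries and counts that join both tissues include it.

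Of those 42379 transcripts, 690 (1.63%) met the conditions in gill and 1211 (2.86%) in kidney (1157, or 2.69%, without kidney 0 h replicate 2), and the 118 that met both are 0.278%. All 24 h values lay above all 0 h values for 14.8% in gill and 12.2% in kidney, whatever the size of the change. The conditions for a fall were met by 2.04% in gill and 1.17% in kidney. Both tissues' shares enter the choice, so nothing is read from them. The 118 make up 17.1% of the gill list and 9.74% of the kidney list. In the mirrored direction 141 transcripts (0.333%) were lower at 24 h in both tissues, while 3 (0.00708%) met the conditions upward in gill and downward in kidney and 11 (0.026%) the reverse. At the limit on change, the lowest smaller change of a chosen transcript was 1.0004. The nearest transcript outside that met the condition of no overlap in both tissues had 0.995. Between 1 and 1.1 lay 22 of the 118. Just outside, 43 transcripts with no overlap in either tissue had a smaller change of 0.9 or more. With overlap allowed, both changes were 1 or more in 0.486% of the 42379. At the limit on level, the lowest mean FPKM was 2.02 inside, and 37 transcripts met all else with a mean of at most 1.97. With changes of 1.5 or more required in each tissue 48 would remain.

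**Figure D1:**
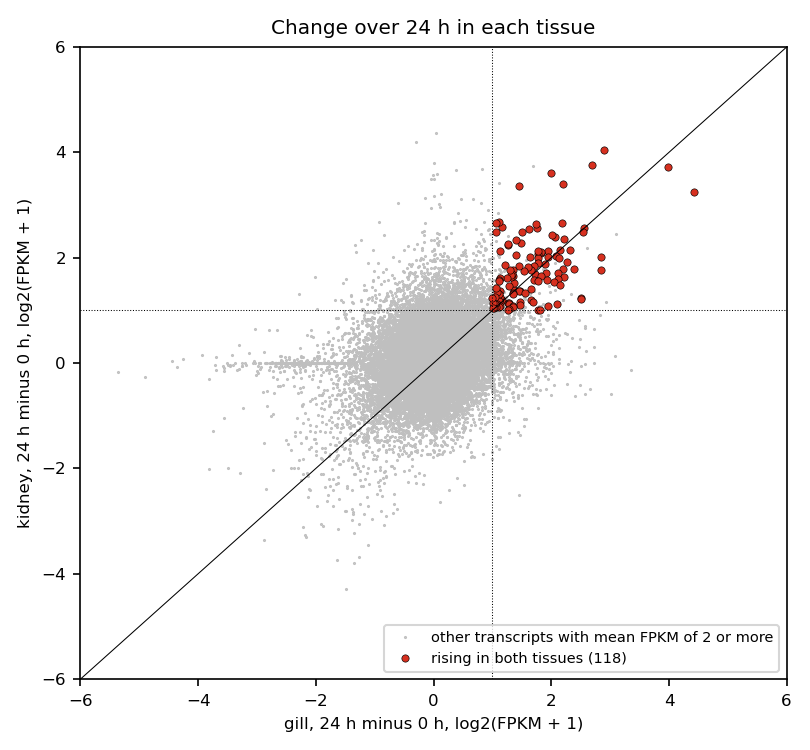
Change from 0 h to 24 h in gill (horizontal) against kidney (vertical), both on log2(FPKM + 1), for transcripts with a mean FPKM of 2 or more; dotted lines mark a change of 1 and the diagonal marks equal change. The 118 transcripts (red) lie in the upper right corner by their choice and spread to 4.42 in gill and 4.04 in kidney. That corner also holds transcripts (grey) whose 0 h and 24 h values overlapped in at least 1 tissue.

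The summed FPKM of the 118 transcripts stood at 591, 560 and 675 in the gill 0 h libraries and at 2274, 2830 and 2274 in the gill 24 h libraries. In kidney the sums were 1655, 880 and 1615 at 0 h and 3955, 5323 and 4924 at 24 h. The groups kept an order with no overlap: gill 0 h was lowest, then kidney 0 h, gill 24 h and kidney 24 h. The gill sum at 24 h, 2459 ± 321 (SD, n = 3), was thus above the kidney sum at 0 h, 1383 ± 436 (SD, n = 3). That kidney mean and SD include replicate 2 at 880, while replicates 1 and 3 stood at 1655 and 1615. The 24 h mean was 4.04 times the 0 h mean in gill and 3.42 times in kidney, or 2.90 times in kidney without kidney 0 h replicate 2. A few abundant transcripts carried much of each sum: the 3 highest held between 22.4% and 44.1% of it, depending on the library.

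**Figure D2:**
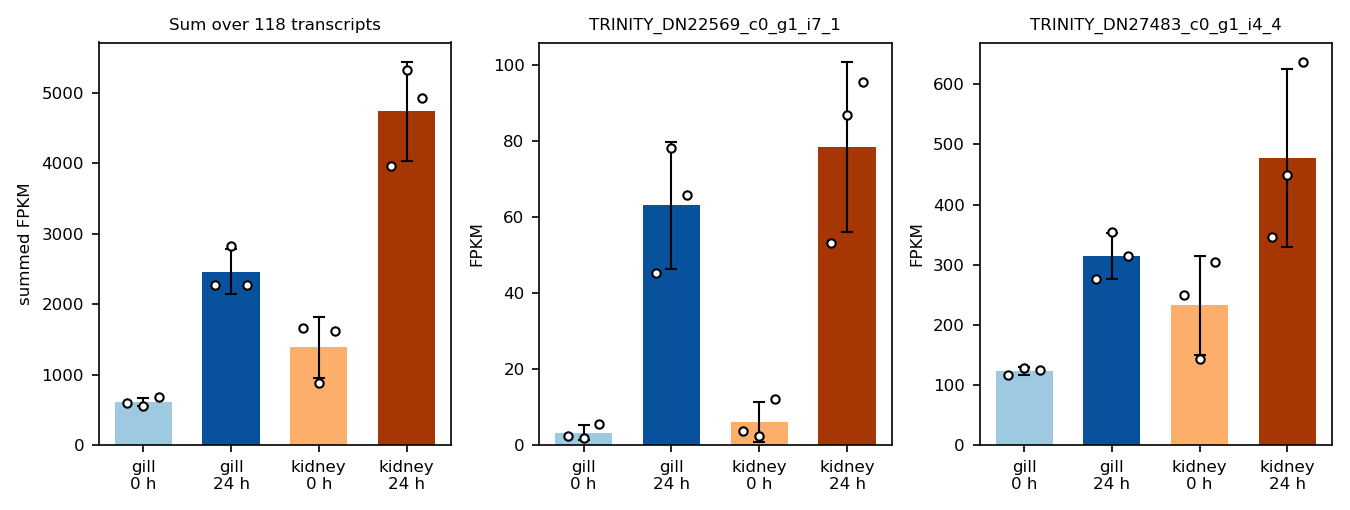
Summed FPKM of the 118 transcripts and FPKM of the 2 named ones in the 4 groups; bars are means, error bars SD over 3 libraries, and points single libraries. In each panel the 24 h points of a tissue lie above its 0 h points, as the choice requires for single transcripts. In the sum the gill reaches 2459 at 24 h against 1383 in kidney at 0 h, with kidney 0 h replicate 2 included.

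The rises were spread over a similar range in both tissues. The median change on the log2 scale was 1.52 in gill, with quartiles of 1.26 and 1.95, and 1.66 in kidney, with quartiles of 1.25 and 2.12. Without kidney 0 h replicate 2 the kidney median was 1.48, with quartiles of 1.11 and 2.04. Over all 42379 transcripts the medians were 0.03 in gill and 0.08 in kidney. A change of 2 or more was reached by 28 transcripts in gill, 38 in kidney and 15 in both. The gap between the times was often narrow: the lowest 24 h FPKM was a median of 2.18 times the highest 0 h FPKM in gill, over the 116 transcripts with a value above 0 there, and 2.03 times in kidney, and it reached only 1.01 times in the narrowest kidney case.

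TRINITY_DN22569_c0_g1_i7_1 had the largest smaller change of the 118. Its FPKM in gill was 2.27, 1.96 and 5.45 at 0 h and 45.2, 78.2 and 65.8 at 24 h. In kidney it was 3.61, 2.37 and 12.004 at 0 h and 53.1, 86.8 and 95.5 at 24 h. Replicate 3 was the highest 0 h library in both tissues, and each 24 h library lay above all 0 h libraries of its tissue. The log2 changes were 3.98 in gill and 3.72 in kidney, or 3.32 in kidney without kidney 0 h replicate 2. No difference between the tissues was called: kidney exceeded gill by 0.57 at 0 h (SE 0.46; limma adjusted p = 0.413) and by 0.30 at 24 h (SE 0.46; limma adjusted p = 0.677). Without kidney 0 h replicate 3 the difference at 0 h was -0.0085, so its sign rested on that library.

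TRINITY_DN27483_c0_g1_i4_4 was the most abundant of the 118, with a mean of 287 FPKM. In gill it stood at 116, 128 and 125 FPKM at 0 h and at 277, 354 and 314 at 24 h. In kidney it stood at 250, 143 and 305 FPKM at 0 h and at 346, 449 and 638 at 24 h. The gill 0 h libraries were close together, while the kidney libraries spread widely and rose only just clear of each other. The log2 changes were 1.34 in gill and 1.06 in kidney, near the limit of the choice, and without kidney 0 h replicate 2 the kidney change was 0.74, under that limit. At 0 h it was higher in kidney, 232 ± 82.3 against 123 ± 6.53 FPKM (SD, n = 3 each), a log2 difference of 0.85 (SE 0.27; limma adjusted p = 0.0312). That call was lost without any 1 of the 3 gill 0 h libraries, without kidney 0 h replicate 1 or 3, and in a fit to only the 2 groups compared (limma adjusted p = 0.0664), and its adjusted p ran from 0.00185 to 0.120 over the alternatives. At 24 h the difference of 0.56 was not called (SE 0.27, limma adjusted p = 0.138), except without kidney 0 h replicate 2 (limma adjusted p = 0.0431). Leaving out that 0 h library kept the 24 h difference at 0.56 and changed only the spread that the 4 groups share. Over the alternatives the limma adjusted p at 24 h ran from 0.0431 to 0.427.

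The transcript with the largest gill change, second in mean level, had 14.3, 8.82 and 18.1 FPKM in gill at 0 h and 305, 380 and 240 at 24 h. In kidney it had 28.8, 26.5 and 24.0 FPKM at 0 h and 214, 344 and 238 at 24 h. Its 0 h level was lower in gill, yet both tissues reached the same range at 24 h, with replicate 2 the highest in each. The transcript with the largest kidney change, 4.04 on the log2 scale, had 3.04, 2.93 and 1.30 FPKM in kidney at 0 h and 33.5, 83.3 and 54.7 at 24 h. In gill it was at 0.424, 0 and 0.0840 FPKM at 0 h and at 4.26, 9.79 and 10.2 at 24 h. Gill thus went from almost nothing to a level above that of kidney at 0 h.

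Some of the transcripts were scarcely found at 0 h. Among the 118, 22 were listed at exactly 0 in at least 1 gill 0 h library and 10 in at least 1 kidney 0 h library. These counts leave out values that are 0 in effect, such as 1.22e-40 FPKM in gill and 2.37e-25 in kidney at 0 h. The choice favours low values at 0 h, and no share over all transcripts was taken. Nothing is therefore read from these counts. In all 3 gill 0 h libraries 2 were listed at 0, and in all 3 kidney 0 h libraries none was. Of these 2, one had 1.27, 2.29 and 1.19 FPKM in gill at 24 h, with 1.22, 3.69 and 6.12 in kidney at 0 h and 7.55, 10.03 and 11.2 at 24 h. The other had 1.21, 2.13 and 1.201 FPKM in gill at 24 h, with 6.54, 5.86 and 15.8 in kidney at 0 h and 20.8, 24.0 and 50.8 at 24 h. No fold is given for either in gill, since its 0 h values are listed at 0.

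The changes in the 2 tissues were within 0.5 of each other on the log2 scale for 83 of the 118, larger in kidney for 69 and larger in gill for 49. The median of kidney change minus gill change was 0.07. Kidney exceeded gill by more than 1 in 11 transcripts and gill exceeded kidney by more than 1 in 4. The largest excess in kidney, 1.90, belonged to a transcript with 2.17, 1.05 and 0.445 FPKM in kidney at 0 h and 9.15, 24.7 and 37.8 at 24 h, while in gill it went from 0.224, 0.867 and 0.525 to 1.40, 3.30 and 5.97. The largest excess in gill, 1.29, belonged to one with 2.503, 2.59 and 2.16 FPKM in gill at 0 h and 20.5, 18.6 and 16.4 at 24 h, while in kidney it went from 1.28, 0.776 and 1.31 to 2.63, 3.85 and 5.73. Both changes entered the choice, so these differences were not tested.

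The median of the mean FPKM was 5.68 for the 118 and 5.05 for all 42379. Of the 118, 55 had a mean of 2 to 5 FPKM, 38 of 5 to 20 and 25 (21.2%) of 20 or more, a class that held 12.7% of the 42379. From the lowest class to the highest, the median change was 1.41, 1.70 and 1.83 in gill and 1.58, 1.66 and 1.78 in kidney. With a pseudocount of 1 the log2 scale understates the change of weak transcripts, so the classes are not compared on equal terms. It also makes the minimum change harder to reach for weak transcripts. The mean includes the 24 h libraries, where the 118 were chosen to be higher. The share of 21.2% is therefore partly set by the choice.

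**Figure D3:**
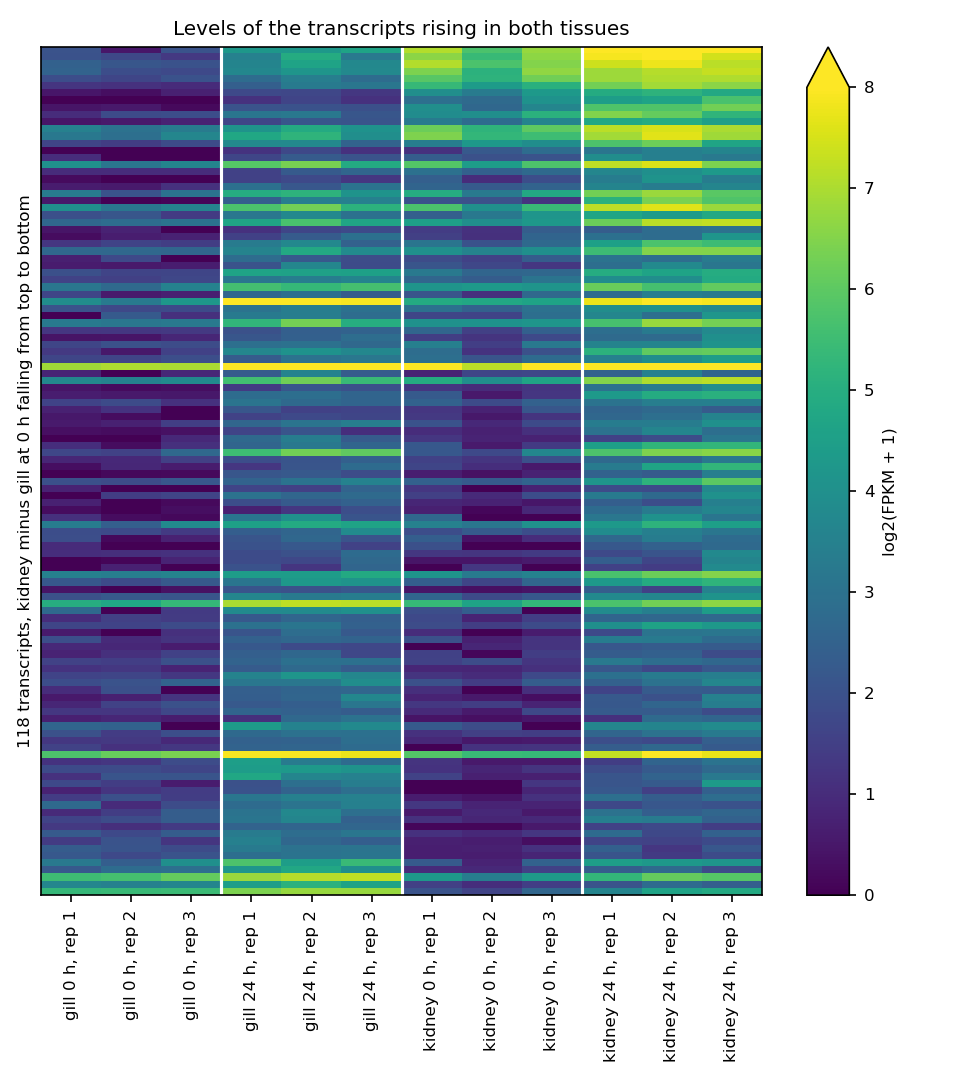
Heat map of log2(FPKM + 1) for the 118 transcripts (rows, ordered by kidney minus gill at 0 h) in the 12 libraries (columns, white lines between groups; the scale is capped at 8). The rows at the top stay higher in kidney and those at the bottom higher in gill at both times, and kidney 0 h replicate 2 is darker than its neighbours.

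The difference between the tissues was not a condition of the choice. It was tested in a limma model fitted to the 75716 transcripts that reached an FPKM of 1 in 3 or more libraries, and all 118 passed that filter. The test is not fully independent of the choice, which used the same libraries. The minimum on mean FPKM can be met mainly through 1 tissue, and the difference at 24 h also contains both changes that made the choice. At 0 h, 50 of the 118 (42.4%) differed between gill and kidney at a limma adjusted p under 0.05, against 29.3% of all tested transcripts and 32.1% of those with a mean FPKM of 2 or more. The kidney side was the larger: 38 (32.2%) were higher in kidney, where 12% of all tested transcripts were, and 12 (10.2%) were higher in gill, where 17.3% were. Among those with a mean FPKM of 2 or more, 13.5% were higher in kidney and 18.6% in gill. At 24 h, 56 (47.5%) differed, against 30.7% of all tested. Of these, 44 (37.3%) were higher in kidney, against 15.1%, and 12 (10.2%) in gill, against 15.6%. Among tested transcripts with a mean FPKM of 2 or more, 33.9% differed at 24 h, 16.4% higher in kidney and 17.5% in gill. The shares were thus above the background on the kidney side and below it on the gill side at both times. The list as a whole was not tested. A rise of 1 needs a mean log2(FPKM + 1) of at least 1 at 24 h in each tissue. Background transcripts, which may be found in 1 tissue only, need not reach that. A mean FPKM of 20 or more was held by 21.2% of the 118 and 12.7% of the 42379. These shares, and those at both times given next, are therefore not compared on equal terms. Each transcript was counted by itself, though some of the 118 may stem from 1 gene, as given below. The 118 and the background differ in the last number of their IDs, which itself goes with tissue, as given below. The median kidney minus gill difference over the 118 was 0.48 on the log2 scale at 0 h and 0.55 at 24 h, against 0.02 and 0.09 over all tested transcripts with a mean FPKM of 2 or more. Without kidney 0 h replicate 2 the median difference at 0 h was 0.70 over the 118 and 0.04 over all tested transcripts at that mean level. In the limma fit without it, 56 of the 118 differed at 0 h, 46 higher in kidney and 10 in gill, against 32.9% of all tested transcripts, and 61 differed at 24 h, 47 and 14, against 36.9%.

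Of the transcripts called, 33 (28% of the 118) were higher in kidney at both times, against 9.19% of all 75716 tested transcripts, and 9 (7.63%) were higher in gill at both, against 12.6%. None was called in opposite directions, where 0.0581% of all tested transcripts were. A further 14 (11.9%, against 8.91%) were called at 24 h and not at 0 h, 11 of them higher in kidney and 3 in gill, and 8 (6.78%, against 7.51%) were called at 0 h and not at 24 h; whether those differences changed over time was not tested. The 54 called at neither time (45.8%, against 61.8%) had a median of the mean FPKM of 3.92, against 18.9 for the 33 and 6.53 for the 9. The 33 higher in kidney had a median FPKM of 2.08 in gill and 13.6 in kidney at 0 h, and of 8.08 and 57.2 at 24 h. In 13 of these 33 the gill mean at 24 h was above the kidney mean at 0 h, and in 11 without kidney 0 h replicate 2, where the kidney median at 0 h was 13.0 for the 33 and 1.29 for the 9 higher in gill. The 9 higher in gill had a median of 3.26 FPKM in gill and 1.12 in kidney at 0 h, and of 18.5 and 4.07 at 24 h.

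The strongest kidney preference at 0 h was a log2 difference of 4.999 (SE 0.41; limma adjusted p = 2.97e-06). That transcript had 3.15, 0.407 and 3.16 FPKM in gill and 135, 52.7 and 108 in kidney at 0 h. At 24 h it had 17.9, 18.2 and 23.7 FPKM in gill and 350, 271 and 323 in kidney. The tissues stayed far apart, and the difference at 24 h was 3.92 (SE 0.41; limma adjusted p = 2.11e-05). The strongest gill preference at 0 h was a difference of -3.29 (SE 0.31; limma adjusted p = 9.08e-06), with 38.9, 40.9 and 42.8 FPKM in gill and 3.10, 2.09 and 5.21 in kidney. At 24 h this transcript had 84.1, 108 and 109 FPKM in gill and 11.3, 23.8 and 27.7 in kidney, a difference of -2.29 (SE 0.31; limma adjusted p = 0.000151). Its gill libraries lay above all kidney libraries at both times.

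**Figure D4:**
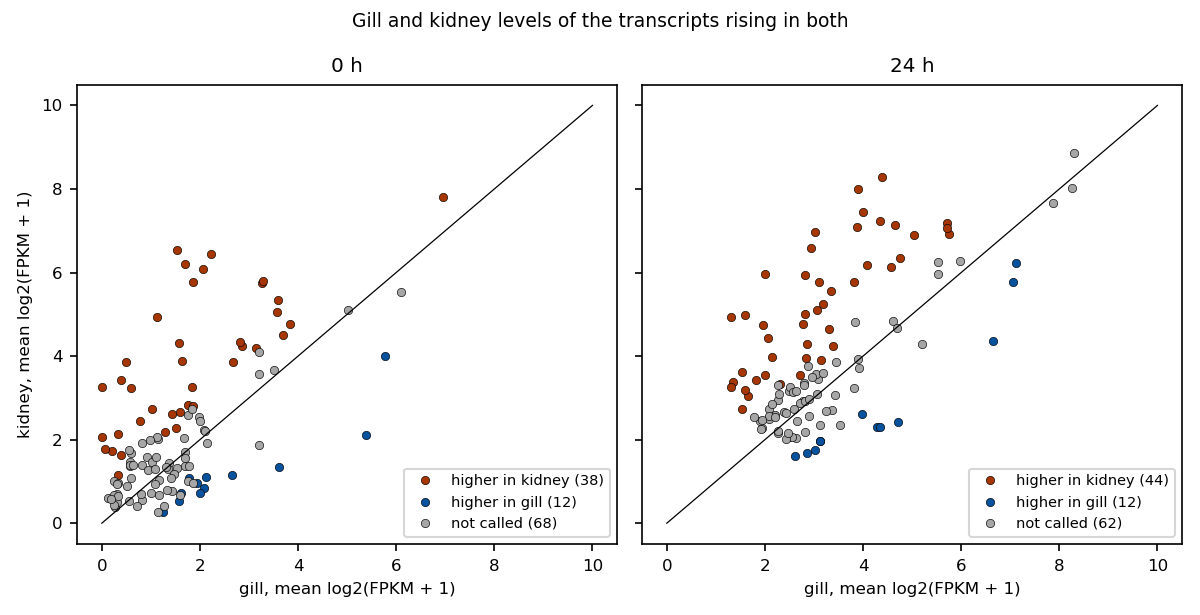
Mean log2(FPKM + 1) in gill (horizontal) and kidney (vertical) of the 118 transcripts at 0 h (left) and 24 h (right), coloured by the limma call between tissues, with the diagonal marking equal levels. Both times show more transcripts called higher in kidney (38 and 44) than in gill (12 and 12).

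To read the rise in libraries that the choice had not used, the conditions were applied to 2 replicate numbers of every group and the third was then read. With replicate 1 held out, 317 transcripts were chosen, and in the held-out libraries 189 (59.6%) were higher at 24 h in both tissues. With replicate 2 held out, 124 of 194 (63.9%) were, and with replicate 3, 171 of 282 (60.6%). Among all transcripts over the same mean level the shares were 31.9%, 35.3% and 31.4%. Changes of 1 or more in both tissues were seen in 18.9%, 39.7% and 24.1% of the chosen transcripts, against 0.942%, 2.13% and 1.30% of all. The changes were smaller than in the libraries used for choosing: in gill the chosen medians of 1.43, 1.42 and 1.39 became 0.69, 1.02 and 0.63, and in kidney 1.56, 1.53 and 1.49 became 0.52, 1.26 and 0.74. Over all transcripts the kidney median with replicate 2 held out was 0.28, which uses kidney 0 h replicate 2. In the held-out libraries 12.3%, 7.73% and 16.7% of the chosen transcripts were lower in both tissues. Of these sets, 103, 83 and 96 transcripts are among the 118. Those are higher at 24 h in every held-out library by their own choice, which used all replicates. They make up 103 of the 189, 83 of the 124 and 96 of the 171 that were higher in both tissues. The rest of each set was not read apart from them. The held-out shares and medians therefore describe the wider sets with these included. They are no separate evidence for the rise of the 118.

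Within the 24 h groups, the 118 transcripts deviated together across tissues. The deviation of each library from its group mean was correlated over the 118 between gill and kidney at 24 h, and libraries with the same replicate number gave r = 0.37, 0.61 and 0.57 for numbers 1, 2 and 3. The 6 pairs with different numbers gave -0.49 to -0.03, values that are pulled below 0 because the 3 deviations of a group sum to 0. Over all 42379 transcripts the same-numbered pairs gave 0.18, 0.15 and 0.15, and over the 141 that fell in both tissues 0.18, 0.19 and 0.31. At 0 h the same-numbered pairs gave 0.35, 0.10 and 0.15 over the 118. Over the 141, which were at their higher level at 0 h, they gave 0.38, 0.19 and -0.19. The 118 also varied more among replicates. Their median coefficient of variation (SD over mean) at 24 h was 30.3% in gill and 30.9% in kidney, against 19.2% and 20.7% over the 42379. The correlations are therefore not compared on equal terms. They are descriptions across transcripts that share libraries, with no test. The kidney 24 h library with replicate number 3 carries 3 in its library name, where the gill 24 h one carries 4, and the labels do not say whether same-numbered libraries came from 1 fish.

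Same-numbered libraries also led together. Of the 118, 59 (50%) had their highest gill and highest kidney 24 h value in the same replicate number, against 38.6% of the 42379. Replicate 2 led 26 (22.0%) in both tissues, against 14.0% of the 42379, replicate 3 led 28 (23.7%), against 13.3%, and replicate 1 led 5 (4.24%), against 11.4%. The 26 led by replicate 2 had a median of the mean FPKM of 12.3, with 11 transcripts at 20 or more. The 28 led by replicate 3 had a median of 4.14 FPKM, with 2 transcripts at 20 or more and 17 under 5. These sets were formed from the values they describe, and no test was made of them. The wider spread of the 118 among replicates applies here too.

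**Figure D5:**
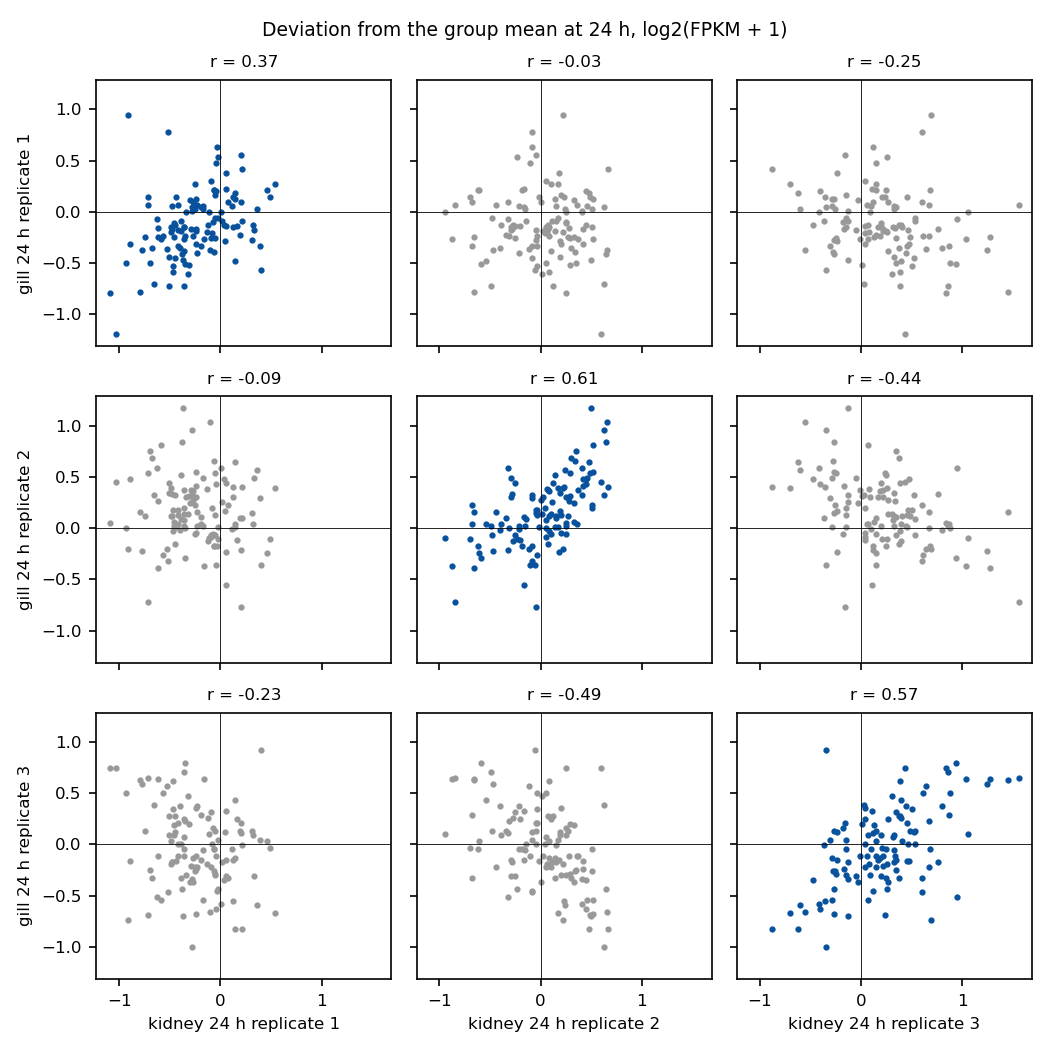
Deviation from the group mean of log2(FPKM + 1) for each of the 118 transcripts in the gill 24 h libraries (rows of panels) against the kidney 24 h libraries (columns), with same-numbered pairs on the diagonal in blue. The blue panels slope upward (r = 0.37, 0.61 and 0.57) and the grey ones lie flat or slope downward (-0.49 to -0.03).

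IDs in the table end in 1, 2, 3 or 4, and no source used here explains that number. Of the 118, 60 (50.8%) ended in 1, 14 (11.9%) in 2, 22 (18.6%) in 3 and 22 in 4, whereas 25.9% of the 42379 ended in 1. Of the 141 transcripts lower in both tissues, 12.8% ended in 1. Over all 10996 transcripts ending in 1 with a mean FPKM of 2 or more, the median change over time was 0.08 in gill and 0.21 in kidney, against -0.03 to 0.02 and 0.02 to 0.04 for the other numbers. Measured from the median of their own number, the 60 had median changes of 1.43 in gill and 1.44 in kidney, which their choice largely fixed. Under that measure 100 transcripts met the conditions, 98 of them among the 118 and 42 of them ending in 1. The number also went with tissue. Mean log2 deviation from each transcript's own mean, over the 42379, was taken by number and library. For number 2 it was 0.33 to 0.48 in gill and -0.52 to -0.28 in kidney at 0 h. Number 3 gave -0.26 to -0.21 and 0.16 to 0.27. Number 4 gave 0.06 to 0.24 in gill and -0.37 to 0.01 in kidney at 0 h. For number 1, which 60 of the 118 carry, the tissues overlapped at 0 h, with -0.15 to -0.08 in gill and -0.25 to 0.04 in kidney. The -0.25 was kidney 0 h replicate 2. At 24 h number 1 stood at -0.08 to 0.11 in gill and 0.10 to 0.26 in kidney. Number 2 held 11.9% of the 118 and 22.9% of the 42379. The number's part in the results beyond this was not tested. Same-numbered pairs of 24 h libraries correlated at 0.22, 0.65 and 0.58 over the 60 ending in 1 and at 0.49, 0.58 and 0.59 over the other 58.

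The IDs also show which transcripts Trinity placed in 1 component, a cluster of overlapping sequence. The table holds no pair of rows from the same Trinity gene and ID number. The 118 fell in 112 components, 6 of which held 2 of them each. These 12 may be pieces of fewer genes, and the profiles of the 6 pairs over the 12 libraries correlated at 0.869 to 0.979 on the log2 scale, while the median over all 6903 pairs of the 118 was 0.716, since the choice makes every profile rise in both tissues. In 1 such pair the first transcript had 5.32, 6.18 and 7.31 FPKM in gill at 0 h and 24.6, 51.6 and 25.1 at 24 h, and the second 12.4, 10.7 and 12.8 and then 46.5, 76.4 and 42.3. Both were highest in replicate 2 of gill and replicate 3 of kidney at 24 h. A further 33 transcripts with a mean FPKM of 2 or more shared a component with the 118. Of these, 19 (57.6%) had both changes above 0, against 35.0% of the 42379, and 1 had both changes at 1 or more. Across different components, 6 of the 6903 pairs of the 118 correlated at 0.99 or more, and 5 of these 6 joined IDs with different last numbers, so 1 gene may stand behind transcripts with different numbers. Leaving off the last number does not identify copies: 35 of the 118 then share their ID with 44 other rows, whose profiles correlated with theirs at a median of -0.11 and in no case at 0.9 or more.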

How the data were processed

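Total RNA came from TRIzol extraction, per the labels' protocols. The reads were processed with Trimmomatic, a read trimmer, per the submitters' processing notes. The authors deposited FPKM values for 84875 assembled transcripts in 12 libraries. No source used here gives the assembly settings, aligner, counting program or genome build. FPKM values are not counts, so no count model was fitted. Relative depth was read from the steps between low values; read totals are unknown, so the counting precision of a single value is unknown, while relative depths this close give the libraries similar precision.

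Groups were taken from the sample titles. Differences between gill and kidney were tested with limma 3.58.1 in R 4.3.3 (lmFit and eBayes with trend, 4 group means, 12 libraries, 8 residual degrees of freedom) on log2(FPKM + 1), two-sided, with Benjamini-Hochberg adjustment over 75716 transcripts that reached an FPKM of 1 in 3 or more libraries. All changes are on this log2 scale, which understates those of weak transcripts. A call is an adjusted p under 0.05. The SE of a transcript rests on 1 spread shared by the 4 groups and both times. Leaving out a 0 h library can therefore also move a call at 24 h. The rule and the tests were tested on simulated data. Other steps used Python 3.11.15.

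The transcripts, the lists and the tests were chosen with earlier results of these data known. The named transcripts are the one with the largest smaller change and the one with the highest mean FPKM. A marker list for cell types of gill and kidney could not be matched to any ID and gave no result. At 24 h, same-numbered gill and kidney libraries deviated together over tested transcripts (r = 0.137, 0.111 and 0.109). The labels give no pairs, so the main tests used no pairing. The replicate number entered only as a block in an alternative fit. Alternatives changed the pseudocount, filter, scaling, libraries and block.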

Additional observations from a re-analysis of the deposited data

How the results depend on the processing

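The alternatives for the median changes and the deviation correlations, and the measure relative to the ID number, were chosen after seeing the data. The number of transcripts meeting the conditions was 247 with a pseudocount of 0.1, all 118 among them, 63 with a mean FPKM of at least 5 and 48 with changes of at least 1.5, and without single libraries it ran from 119 to 167; fewer libraries make the condition of no overlap easier to meet. Without kidney 0 h replicate 2 it was 124, 96 of them among the 118. Median-ratio scaling moved the median kidney change of all transcripts from 0.08 to -0.07 and left 91, all among the 118. The median change of the 118 was 2.16 in gill and 2.11 in kidney with a pseudocount of 0.1, which by construction enlarges the change of weak transcripts, and 1.47 in kidney with median-ratio scaling; without single libraries the gill median lay between 1.44 and 1.62 and the kidney median between 1.48 and 1.76, the lowest being without kidney 0 h replicate 2. The counts differing between gill and kidney stayed within 1.5 times, 42 to 59 at 0 h and 48 to 63 at 24 h over the other settings, where 23.3% to 33.9% and 27.9% to 37.5% of all tested transcripts differed. Without single libraries they were 36 to 56 and 47 to 61, against 24% to 32.9% and 25.1% to 36.9%. With the replicate number within time as a block, 61 differed at 24 h, 55 of them among the 56, against 28.4% of all tested, and neither named transcript changed its call. At 0 h same-numbered libraries correlated less over tested transcripts than at 24 h (r = 0.0915, -0.0085 and 0.0345), though replicate 1 came near the 24 h values. The block gave 54 at 0 h, against 27% of all tested. The tissue difference of TRINITY_DN22569_c0_g1_i7_1 at 0 h was -0.0085 without kidney 0 h replicate 3 and 0.57 with it, and 0.96 without kidney 0 h replicate 2. With absolute depth unknown, the lowest values, such as those listed at 0, are the least certain.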
